A study of Mus musculus with 6 samples.

Results

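The 39 genes described here encode parts of the cornified envelope and of the desmosome, without the keratins. They were taken by gene symbol from a list of 29 cornification genes and 10 desmosome genes, and all 39 were found among the 43432 gene IDs of the deposited count table. Expression was measured by RNA sequencing of medullary thymic epithelial cells (mTEC) from the thymi of C57BL/6 mice aged 4 weeks. 3 libraries came from Copa+/+ mice (WT) and 3 from CopaE241K/+ mice (MUT), which are heterozygous for the E241K allele of the COPI coat subunit gene Copa, and the series asked which genes differ between the genotypes. The allele is not described as limited to any cell type, and the labels do not say whether a library came from 1 animal or from a pool. The p-values therefore measure the spread between these libraries, which may be partly technical. In such bulk samples, fewer cells of a type and less RNA per cell cannot be told apart.

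The cornified envelope is the shell of cross-linked protein and bound lipid that replaces the plasma membrane of a dying keratinocyte. Involucrin, loricrin and the small proline-rich proteins are joined by transglutaminases, lipoxygenases prepare the lipids that are attached to the shell, and proteases with their inhibitors time the shedding of the dead cells. Desmosomes are the spot junctions that tie keratin filaments of neighbouring cells together through cadherins and plaque proteins. In the thymus, some mTEC go on after the Aire stage to a corneocyte-like state and to the keratinised whorls called Hassall's corpuscles, where parts of this programme are switched on.

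Library totals ran from 19934513 to 23366238 counts. The level of Copa itself was 400 ± 151 CPM in the WT libraries and 348 ± 43.6 CPM in the MUT libraries (CPM, counts scaled to the TMM-adjusted library size, mean ± SD, n = 3 each, as throughout), and a single amino acid change is not checked by this count. The epithelial marker Epcam was present at 418 CPM or more and Aire at 929 CPM or more in every library, the pattern of the cell type named in the labels. The terminal keratins Krt1 and Krt10 of the corneocyte-like state were also counted in every library, from 23.2 to 113 CPM and from 15.5 to 101 CPM. Of 10 thymocyte markers, the summed level ran from 253 to 628 CPM in WT and from 145 to 1098 CPM in MUT, with Ptcra at 0 counts in WT library 1 and MUT library 1. The summed level of 10 myeloid markers ran from 624 to 1186 CPM in WT and from 544 to 1038 CPM in MUT. WT library 1 had the most genes without a count: 13.3% of the genes tested had 0 counts there, against 0.221% in MUT library 3. The cause was not tested.

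The genes lie close together on the genome, and 23 of the 39 have another of them as their next neighbour of the list within 1 Mb (GENCODE M21, GRCm38). Lor, Sprr1b, Sprr1a, Ivl and Flg fall in the epidermal differentiation complex on chromosome 3. Sbsn, Dmkn and Krtdap follow each other on chromosome 7 with gaps of 7.6 and 6.8 kb and no other protein-coding gene between them. Lypd2 and Ly6d are 27.7 kb apart on chromosome 15, with 2 other protein-coding genes between them. Calml3 and Calm4 are 33.4 kb apart on chromosome 13, and Aloxe3 and Alox12b 7.9 kb apart on chromosome 11.

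Promoter windows from RefSeq (GRCm38.p6) were at hand for 23 of the 39 genes, in 28 windows, and the 250 bases before each start were searched on both strands. The letters TGANTCA are the binding motif of the AP-1 factors Fos and Jun and read the same on both strands. They occurred in 10 of the 28 windows (35.7%) and in 6.75% of all 32851 windows. In Dmkn, 1 site lay 89 and 91 bases before 2 starts and was counted in the windows of both. The 8 genes that held the letters were Lor, Sprr1b, Sprr1a, Ivl and Flg on chromosome 3 and Sbsn, Dmkn and Krtdap on chromosome 7. None of the other 15 members with a window held them. Other genes lie between the members on chromosome 3, 14 of them protein-coding between Lor and Sprr1b, and were not examined one by one. The stretches are shown because all 8 members in these 2 clusters hold the letters. The motif is in capitals with 15 bases on each side, 5′ to 3′ on the strand of the gene.
Lor: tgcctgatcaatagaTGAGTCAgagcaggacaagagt
Sprr1b: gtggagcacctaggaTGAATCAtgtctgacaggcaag
Sprr1a, far site: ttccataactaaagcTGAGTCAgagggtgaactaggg
Sprr1a, near site: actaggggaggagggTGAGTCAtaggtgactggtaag
Ivl: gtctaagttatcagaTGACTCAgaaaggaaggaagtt
Flg: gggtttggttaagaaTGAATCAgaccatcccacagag
Sbsn: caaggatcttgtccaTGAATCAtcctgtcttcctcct
Dmkn, first start: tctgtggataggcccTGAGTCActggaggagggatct
Dmkn, second start: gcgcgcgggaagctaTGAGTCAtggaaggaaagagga
Krtdap: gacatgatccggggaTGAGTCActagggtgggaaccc

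Those on chromosome 3 lie at chr3:92083169-92083205 (Lor, minus strand), chr3:92438869-92438905 (Sprr1b, minus), chr3:92486006-92486042 and chr3:92485976-92486012 (Sprr1a, minus), chr3:92573830-92573866 (Ivl, minus) and chr3:93273428-93273464 (Flg, plus). Those on chromosome 7 lie on the plus strand at chr7:30751337-30751373 (Sbsn), chr7:30763652-30763688 and chr7:30776308-30776344 (Dmkn) and chr7:30787809-30787845 (Krtdap). The motif began between 48 bases (Lor) and 146 bases (Sprr1a, far site) before the start. The TATA letters TATAAA, searched on both strands too, were found in 7 of the 28 windows (25.0%) and in 12.4% of all windows. The 7 genes were Lor, Sprr1b, Sprr1a, Ivl and Flg of the chromosome 3 cluster, Krtdap, and Tgm3. Searched likewise, AACCNGTT, the core bound by the grainyhead factors that Grhl1 and Grhl3 encode, was in 0 of the 28 and in 1.79% of all. Genes with the AP-1 letters spanned the whole range of levels, from Sprr1a at the top of the list to Flg at its bottom.

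To compare levels between genes, they were put on a scale per length, as transcript levels scaled to length and library (TPM) computed from the counts and merged exon lengths. Sprr1a, which encodes a small proline-rich envelope precursor, led the list at 2460 ± 402 TPM in WT and 2820 ± 732 TPM in MUT and ranked 23 among all genes by its mean. Krtdap, a small secreted peptide of differentiating keratinocytes, came next at 871 ± 318 and 525 ± 80.5 TPM (rank 83), then Asprv1, the protease that processes filaggrin, at 451 ± 293 and 451 ± 172 TPM (rank 147). Sprr1a stood clear of both by more than these SDs, whereas Krtdap in MUT and Asprv1 in either genotype were within 1 SD of each other. Ly6d stood at 469 ± 58.4 and 190 ± 40.3 TPM and Lypd2 at 283 ± 96.4 and 134 ± 90.4 TPM.

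The genes of the best known cornification proteins stood far lower, although only Flg was at the very end of that order. Involucrin (Ivl) measured 18.2 ± 12.3 TPM in WT and 16.4 ± 3.77 TPM in MUT, and loricrin (Lor), the main protein of the epidermal envelope, 6.23 ± 5.84 and 5.01 ± 0.576 TPM. Filaggrin (Flg), which bundles keratin in the granular layer, had 0 counts in 5 libraries and 12 counts in MUT library 3, and was the 1 member not tested. Among the desmosome genes, Dsp (188 ± 61.1 and 163 ± 83.3 TPM), Dsg2 (165 ± 36.0 and 170 ± 98.2 TPM) and Jup (111 ± 16.4 and 94.7 ± 56.0 TPM) led, while Dsg3 was at 1.45 ± 1.62 and 5.29 ± 3.01 TPM.

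**Figure D1:**
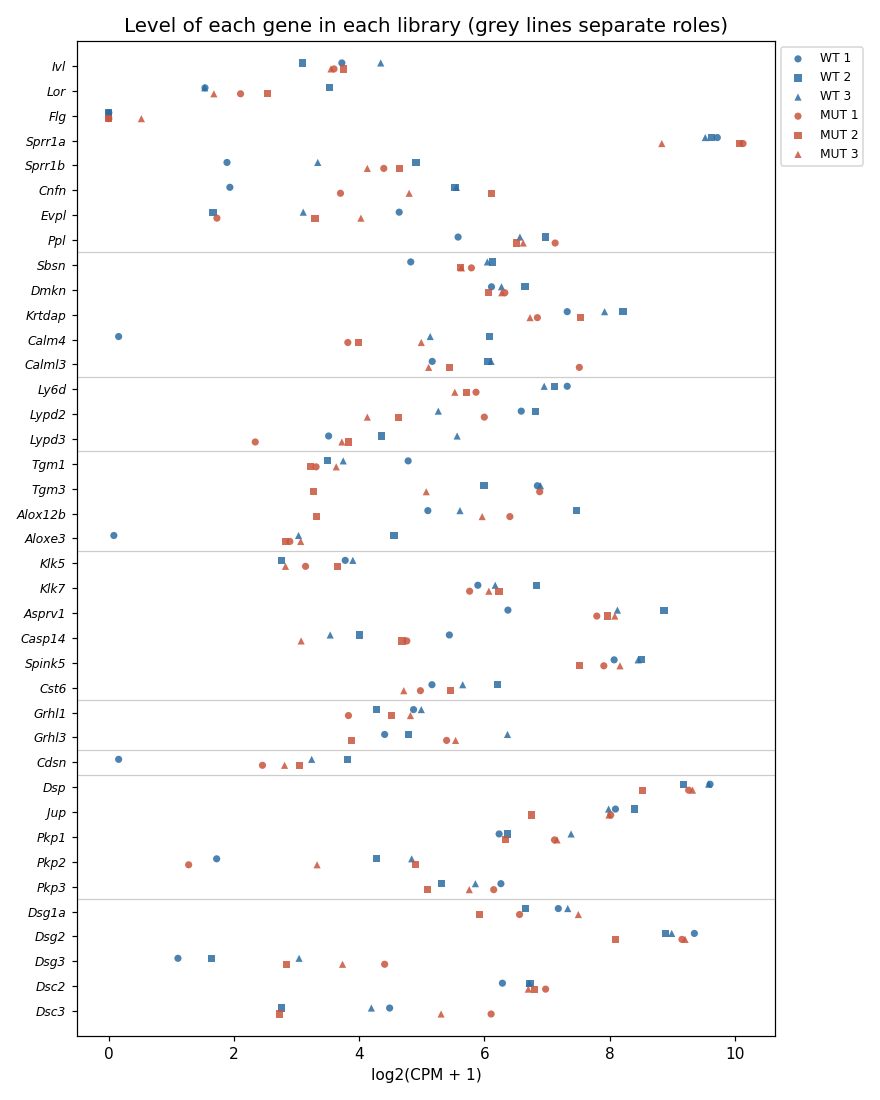
Level of the 39 genes in each of the 6 libraries, as log2(CPM + 1) on the horizontal axis, with WT in blue and MUT in red and marker shapes for the replicate number; grey lines separate the roles. CPM is not per length, so points are to be compared within a row, where Calm4, Aloxe3 and Cdsn each have a single point near 0, in WT library 1.

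Between the genotypes, the 3 genes of the Ly6 family had the most negative fitted values of all 38 tested members, and the cadherin genes Dsg3 and Dsc3 the most positive. Ly6d averaged 140 ± 18.4 CPM over the WT libraries and 51.3 ± 6.07 CPM over the MUT libraries. By edgeR's quasi-likelihood test with Benjamini-Hochberg adjustment over the 17172 genes tested, 0 of the 38 members had an adjusted p under 0.05 (0.999875 for each), and 0.0% of all genes tested did. Without adjustment, 597 genes were under 0.05. At an unadjusted p under 0.05 there was 1 member, Ly6d, lower in MUT, where 1.85% of all genes tested were lower and 1.62% higher at that threshold.

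The MUT libraries all lay below the WT libraries for 1 of the 38 members, again Ly6d, and 3.96% of all genes tested did so. They lay all above for 0 members, and 5.39% of all genes did so. Fitted values were below 0 for 29 of the 38 tested members, 23 of 28 in cornification and 6 of 10 in the desmosome, against 50.6% of all genes tested. That count was 23 of 38 (17 of 28 in cornification) with the replicate number as a block and 24 of 38 with limma-voom. Without WT library 2 it was 22 of 38 (15 of 28 in cornification), and without MUT library 2 the desmosome genes below 0 numbered 3 of 10. The median log2 fold change (MUT minus WT, as throughout) was -0.31 over the members and -0.01 over all genes tested. In 27 of the 38 the fitted value was smaller than its own standard error, as in 69.7% of all genes tested. The filter on low counts did not choose a direction here, since all 38 had at least 10 counts in at least 5 of the 6 libraries.

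**Figure D2:**
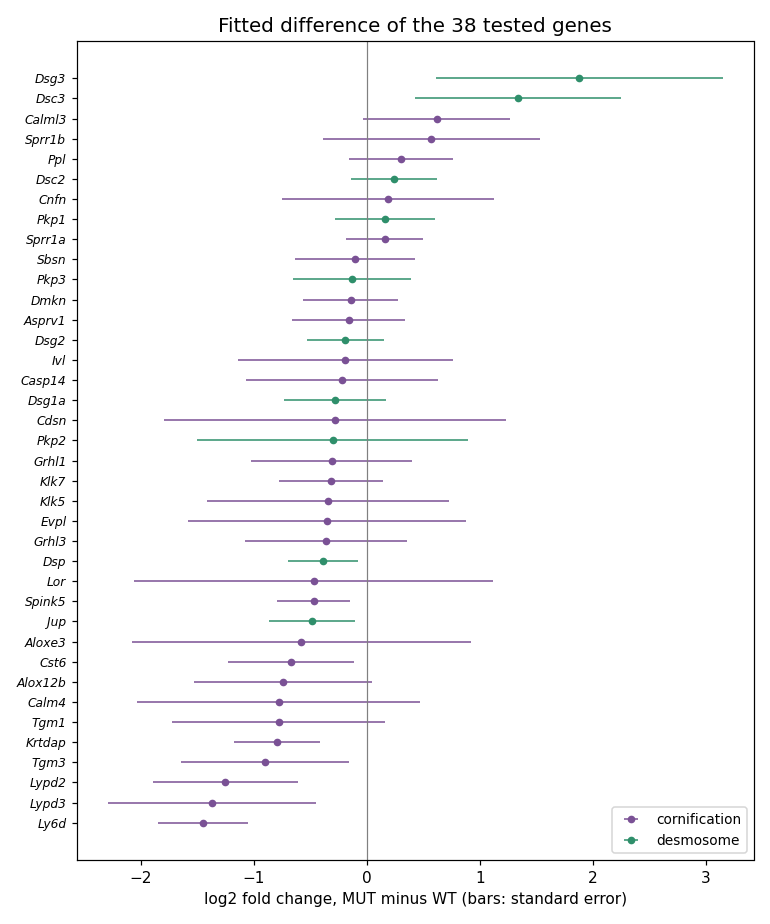
Fitted log2 fold change (MUT minus WT) of the 38 tested members with its standard error as a bar, sorted, with cornification genes in purple and desmosome genes in green. Ly6d at -1.45, Lypd3 at -1.37 and Lypd2 at -1.25 form the lower end, and Dsc3 at 1.34 and Dsg3 at 1.88 the upper end.

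The Ly6 family members are small proteins held to the cell surface by a lipid anchor. Ly6d (ENSMUSG00000034634, chromosome 15, 74762056 to 74763620) measured 159, 138 and 123 CPM in WT libraries 1, 2 and 3 and 57.3, 51.6 and 45.1 CPM in MUT libraries 1, 2 and 3. The lowest WT library was above the highest MUT library, and the spread within each genotype was 1.30-fold in WT and 1.27-fold in MUT. The log2 fold change was -1.45 (SE 0.40) with an unadjusted edgeR p of 0.0033, a value that 28 other genes tested were below, and it stayed between -1.53 and -1.35 when any 1 library was left out. DESeq2 gave Ly6d an adjusted p of 0.0233, as the 1 member it called, and it called 0.629% of the genes to which it gave an adjusted p.

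Epcam differed in the same direction. Epcam, the epithelial adhesion molecule used to recognise these cells, measured 629, 641 and 751 CPM in the WT libraries and 418, 441 and 593 CPM in the MUT libraries, also without overlap (log2 fold change -0.48, SE 0.28). Per 100 CPM of Epcam, Ly6d stood at 25.3, 21.6 and 16.3 CPM in the WT libraries and at 13.7, 11.7 and 7.61 CPM in the MUT libraries. The genotypes were still apart on that scale, where 1.31% of all genes tested had MUT below WT.

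Lypd2, 27.7 kb from Ly6d with 2 other protein-coding genes between, measured 95.2, 112 and 37.4 CPM in WT and 62.9, 23.7 and 16.5 CPM in MUT. WT library 3 lay below MUT library 1, so the genotypes overlapped (log2 fold change -1.25, SE 0.64). Lypd3, on chromosome 7, measured 10.4, 19.5 and 46.3 CPM in WT and 4.06, 13.2 and 12.2 CPM in MUT, and WT library 1 was under MUT libraries 2 and 3 (-1.37, SE 0.92, and -0.61 without WT library 3). For each of these 3 genes the sign was kept whichever library was left out, and their summed level was 247 ± 35.3 CPM in WT and 95.5 ± 25.9 CPM in MUT.

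The secreted and calcium-binding products differed among themselves. Krtdap measured 159, 296 and 241 CPM in WT and 114, 184 and 105 CPM in MUT. Only WT library 1 was under the highest MUT library, number 2 (log2 fold change -0.79, SE 0.38). Its chromosome 7 neighbours were flatter: Sbsn, which encodes suprabasin, had a log2 fold change of -0.10 (SE 0.53), and Dmkn, which encodes dermokine, one of -0.14 (SE 0.42). All 3 neighbours were highest in WT library 2.

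Calm4 and Calml3, calmodulin-like calcium sensors of stratified epithelium, had fitted values of opposite sign, and neither passed the test. Calm4 had 2, 1410 and 775 counts in WT and 277, 310 and 851 counts in MUT, a range within WT that exceeds any difference between genotypes (-0.78, SE 1.25, but 0.17 without WT library 2, 0.51 with the replicate block and 1.10 with limma-voom). Calml3 measured 34.9, 65.6 and 67.9 CPM in WT and 182, 42.6 and 33.5 CPM in MUT. MUT library 1 alone was high, and the log2 fold change of 0.62 (SE 0.65) was -0.56 when it was left out.

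Structural envelope genes showed no common direction, since 4 of the 7 tested were above 0 and their median was 0.16. Sprr1a measured 842, 793 and 737 CPM in WT and 1120, 1072 and 455 CPM in MUT, so that the MUT libraries held both the highest and the lowest values (0.16, SE 0.34, and 0.47 without MUT library 3). Its relative Sprr1b, with 2.70, 29.0 and 9.11 CPM in the WT libraries and 20.0, 23.9 and 16.5 CPM in the MUT libraries, differed more within WT than between genotypes (0.57, SE 0.96). Sprr1a and Sprr1b resemble each other in sequence, and how the authors' counting treated reads shared by such copies is not given in the sources used here.

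Periplakin (Ppl) and envoplakin (Evpl) are the plakins on which the envelope is first laid down. Ppl measured 46.8, 125 and 93.8 CPM in WT and 139, 90.2 and 97.3 CPM in MUT (0.30, SE 0.46). Per length, Evpl was lower than Ppl, at 4.27 ± 3.78 TPM in WT and 4.25 ± 4.17 TPM in MUT against 32.8 ± 15.5 and 43.9 ± 14.1 TPM. It was also less even, with WT values of 23.9, 2.17 and 7.61 CPM and MUT values of 2.31, 8.81 and 15.3 CPM (-0.35, SE 1.23), so the 2 partners did not follow each other across libraries. Cnfn, which encodes cornifelin, ranged from 2.82 to 45.9 CPM in WT and from 12.0 to 68.5 CPM in MUT. Ivl lay between 7.53 and 19.3 CPM and Lor between 1.89 and 10.5 CPM over all 6 libraries, with the extremes of both in WT.

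All 4 enzymes of cross-linking and lipid processing had fitted values below 0, with a median of -0.76 and standard errors from 0.74 to 1.50, but Alox12b and Aloxe3 turned above 0 without WT library 2. Transglutaminase 3 (Tgm3) measured 114, 62.7 and 118 CPM in WT and 117, 8.62 and 32.6 CPM in MUT. MUT library 1 matched WT while MUT library 2 was lowest by far, and the log2 fold change of -0.90 (SE 0.74) was -2.25 without MUT library 1 and -0.40 without MUT library 2. Transglutaminase 1 (Tgm1), the membrane-bound enzyme that starts envelope assembly, measured 26.5, 10.3 and 12.4 CPM in WT and 8.92, 8.34 and 11.4 CPM in MUT (-0.78, and -0.25 without WT library 1).

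The lipoxygenase pair Alox12b and Aloxe3 act one after the other on the ceramides of the skin barrier. Alox12b measured 33.2, 177 and 47.8 CPM in WT and 83.8, 9.01 and 61.4 CPM in MUT (-0.74, SE 0.79, but 0.33 without WT library 2). Aloxe3 had 1, 477 and 163 counts in WT and 136, 126 and 204 counts in MUT (-0.58, SE 1.50, but 0.85 without WT library 2, 0.71 with the replicate block and 1.28 with limma-voom). Both were highest in WT library 2, and their lowest values were in different libraries.

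Proteases of shedding and their inhibitors lay below 0 in all 6 cases in edgeR's fit to all libraries, with a median log2 fold change of -0.33. Of these, Asprv1 (-0.16) turned to 0.44 without WT library 2, 0.15 with the replicate block and 0.11 with limma-voom, and Casp14 (-0.22) to 0.60 without WT library 1 and 0.16 without MUT library 3. Spink5, whose product LEKTI restrains the kallikreins, measured 268, 362 and 350 CPM in WT and 239, 182 and 286 CPM in MUT. WT library 1 lay under MUT library 3, the single crossing (-0.47, SE 0.32). Cst6, which encodes the cysteine protease inhibitor cystatin M/E, measured 34.8, 73.1 and 49.3 CPM in WT and 30.5, 43.0 and 25.2 CPM in MUT (-0.67, SE 0.56), again with WT library 1 as the overlap.

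The kallikreins themselves cut corneodesmosomes, and their fitted values were nearer 0 than those of Spink5 and Cst6, a difference that was not tested. Klk7 measured 80.8 ± 28.4 and 64.5 ± 10.5 CPM (-0.32, SE 0.46) and Klk5 10.8 ± 4.39 and 8.50 ± 2.82 CPM (-0.34, SE 1.07). Asprv1 measured 82.0, 466 and 278 CPM in WT and 221, 248 and 270 CPM in MUT, a 5.68-fold range in WT against 1.22-fold in MUT. Casp14, the caspase of cornification, ran from 10.6 to 42.4 CPM in WT and from 7.41 to 26.1 CPM in MUT. Corneodesmosin (Cdsn), the target of the kallikreins, had 2, 277 and 192 counts in WT and 95, 152 and 166 counts in MUT (-0.28, SE 1.51).

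Grhl1 and Grhl3, grainyhead transcription factors of epithelial barrier genes, measured 25.8 ± 6.58 and 20.8 ± 7.08 CPM (-0.31, SE 0.71), and 42.8 ± 33.7 and 33.5 ± 17.2 CPM (-0.36, SE 0.72). Both differed by less than the spread between libraries. Grhl3 was highest in WT library 3, at 81.6 CPM, and without that library its log2 fold change was 0.51.

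In the desmosome, 4 of the 5 plaque genes had fitted values below 0, with a median of -0.30. None passed the test, and Pkp2 and Pkp3 turned above 0 when some 1 library was left out. Dsp, which encodes desmoplakin, the link to keratin filaments, measured 777, 579 and 765 CPM in WT and 613, 367 and 640 CPM in MUT (-0.39, SE 0.31). WT library 2 fell inside the MUT range. Jup, which encodes plakoglobin, a protein of desmosomes and adherens junctions alike, measured 272, 337 and 252 CPM in WT and 258, 107 and 253 CPM in MUT, where only MUT library 2 stood apart (-0.48, SE 0.38, and -0.17 without it).

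The plakophilins bind desmoplakin and cadherins in the plaque. Pkp1, which overlaps the less counted gene Gm36938 on its own strand, measured 107 ± 50.9 and 120 ± 34.6 CPM (0.16, SE 0.44) and Pkp3 57.1 ± 18.6 and 52.0 ± 18.4 CPM (-0.13, SE 0.52). Pkp2, the form found outside stratified epithelium as well, was low and uneven, from 2.30 to 27.6 CPM in WT and from 1.42 to 28.7 CPM in MUT. The lowest value of Pkp2 in each genotype was in library 1.

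Among the cadherins, whose genes share a cluster on chromosome 18, Dsg2, the desmoglein that simple epithelia also express, measured 653, 473 and 508 CPM in WT and 569, 271 and 589 CPM in MUT (-0.19, SE 0.34). Dsg1a, a desmoglein of upper epidermal layers, measured 144, 100 and 160 CPM in WT and 93.4, 59.8 and 180 CPM in MUT (-0.28, SE 0.45). Mouse Dsg1 exists in close copies, so counts could have been split between Dsg1a, Dsg1b and Dsg1c. Dsc2, the desmocollin with the widest tissue range, measured 77.1, 105 and 104 CPM in WT and 125, 110 and 103 CPM in MUT (0.24, SE 0.38).

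Dsg3 and Dsc3, the cadherin pair of basal and lower layers of stratified epithelium, were the members with the highest fitted values. Dsg3 measured 1.15, 2.12 and 7.22 CPM in WT and 20.2, 6.13 and 12.3 CPM in MUT. WT library 3 lay above MUT library 2, and the log2 fold change was 1.88 (SE 1.27), from 1.40 to 2.97 with any 1 library left out. Dsc3 measured 21.4, 5.75 and 17.3 CPM in WT and 67.9, 5.60 and 38.6 CPM in MUT, with the lowest values of both genotypes in libraries numbered 2 (1.34, SE 0.91, and 0.58 without MUT library 1). Neither difference exceeded the spread between libraries by edgeR's test.

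Much of the variation in these genes ran between libraries of the same genotype. WT library 2 held the highest value of 14 of the 28 tested cornification genes (50.0%), against 18.5% of all genes tested and 18.7% of the 13250 tested genes within the same range of mean CPM. MUT library 3 held the highest value of 0, against 10.4% of all genes tested and 8.16% of those within that range. It held the lowest value of 7 (25.0%, against 7.61% of all genes and 8.32% within that range). WT library 1 held the lowest value of 8 (28.6%, against 30.0% of all genes), a share near the background.

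**Figure D3:**
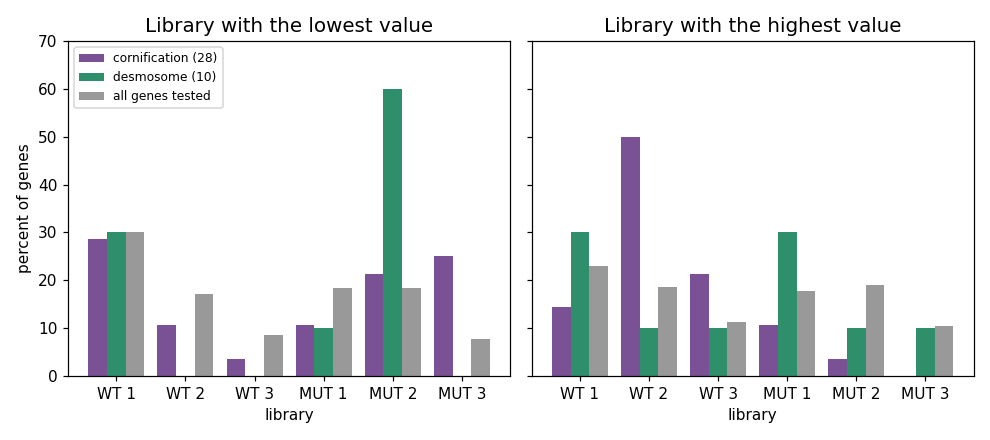
Percent of genes whose lowest (left) or highest (right) CPM was in each library, for the 28 tested cornification genes (purple), the 10 desmosome genes (green) and all genes tested (grey). WT library 2 is the highest for 50% of the cornification genes and MUT library 2 the lowest for 60% of the desmosome genes, against 18.5% and 18.4% of all genes.

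Calm4, Aloxe3 and Cdsn were nearly absent from WT library 1, with 2, 1 and 2 counts, and had at least 90 counts in each other library. Casp14, Tgm1 and Evpl, in contrast, had their highest values in WT library 1. That pattern, at most 2 counts in WT library 1 and at least 90 elsewhere, was found for 139 genes of the table, and for 14, 19 and 19 genes when the low library was WT 2, MUT 1 or MUT 2. Without WT library 1, the MUT libraries all lay below WT for 9 of the 38 members (23.7%) and 9.26% of all genes tested: Asprv1, Calm4, Cdsn, Cst6, Krtdap, Ly6d, Lypd3, Sbsn and Spink5. All 9 are cornification genes, and 0 members lay all above, against 9.08% of all genes. Leaving out any other library gave 3 to 5 such members (7.89% to 13.2%), where 6.55% to 9.48% of all genes tested lay all below. With any library left out, edgeR gave 0 members an adjusted p under 0.05. The list of 9 was read after its values were seen.

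**Figure D4:**
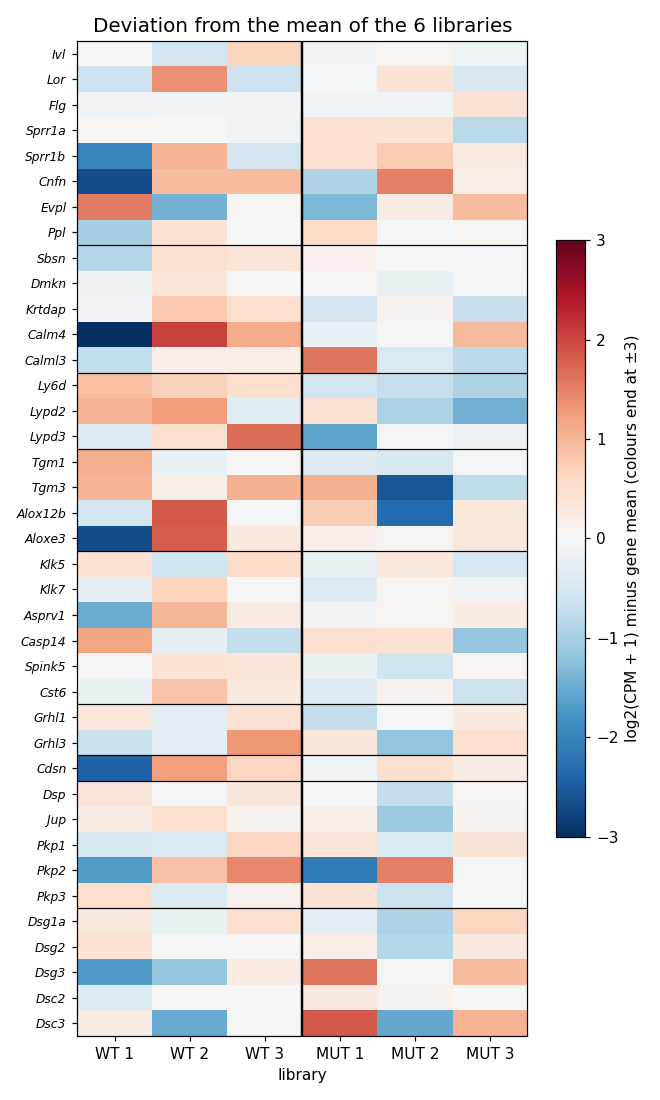
Deviation of log2(CPM + 1) from the mean of the 6 libraries for each gene (rows, grouped by role with black lines) in each library (columns, WT left and MUT right), red for above and blue for below. Calm4, Aloxe3, Cdsn and Cnfn are dark blue in WT library 1, Tgm3 and Alox12b in MUT library 2, and the Ly6d row is red in the 3 WT libraries and blue in the 3 MUT libraries.

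Desmosome genes were set apart by MUT library 2, which held the lowest value of 6 of the 10 (60.0%, against 18.4% of all genes tested): Dsp, Jup, Pkp3, Dsg1a, Dsg2 and Dsc3. Their summed level was 2098, 1739 and 2064 CPM in WT and 1956, 1067 and 2020 CPM in MUT. The same library had the highest summed thymocyte markers of the 6, at 1098 CPM, and 1038 CPM of myeloid markers. The leukocyte gene Ptprc, itself among those thymocyte markers, was at 384 CPM there against 24.3 to 104 CPM elsewhere. Cd4, Cd8a, Rag1, Dntt and Ptcra were also highest in that library, whereas Cd3e, Cd3g, Cd8b1 and Lck were highest in a WT library. WT library 2, with the lowest desmosome sum of the WT libraries and the most maxima among cornification genes, was next in thymocyte markers (628 CPM) and first in myeloid markers (1186 CPM). Of the myeloid sum, Lyz2 alone was at 722 CPM in WT library 2 and 636 CPM in MUT library 2, and at 384 CPM or more in every library. The part of thymocytes and myeloid cells in the values of WT library 2 and MUT library 2 was not tested. Epcam was at 418, 441 and 593 CPM in MUT libraries 1, 2 and 3, and its relation to the desmosome sum was not tested.

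Summed over the 29 cornification genes, the level was 2207, 3243 and 2685 CPM in WT and 2727, 2383 and 1845 CPM in MUT. Sprr1a made up between 24.5% and 45.0% of that sum, which is not corrected for length. Without it the sum was 1365, 2450 and 1948 CPM in WT and 1608, 1310 and 1390 CPM in MUT, so that WT library 1 lay within the MUT range and WT libraries 2 and 3 above it.

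**Figure D5:**
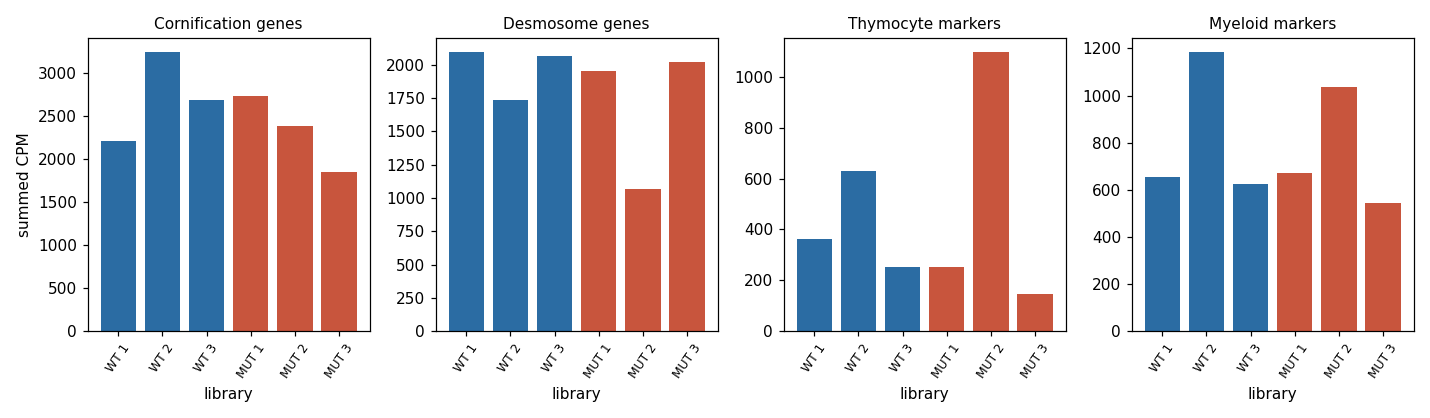
Summed CPM in each library (bars, WT blue and MUT red, axes from 0) of the 29 cornification genes, the 10 desmosome genes and the 10 thymocyte and 10 myeloid markers. The desmosome sum is lowest, at 1067 CPM, in MUT library 2, where the thymocyte markers reach 1098 CPM.

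Further genes of the same programmes were examined in the same way. Of 77 further cornification genes, 58 were tested, and edgeR gave 0 of them an adjusted p under 0.05. At an unadjusted p under 0.05, 3 of the 58 were lower and 1 higher in MUT, where 1.85% and 1.62% of all genes tested were. In 5 of the 58 the MUT libraries lay all below WT and in 1 all above, where 3.96% and 5.39% of all genes did. The shares lower and all below were larger than those of all genes, a difference that was not tested. Fitted values were below 0 for 32 of the 58 (55.2%), near the 50.6% of all genes and less than the 82.1% of the cornification members, a difference that was not tested, and the median was -0.13. The 4 terminal keratins Krt1, Krt10, Krt77 and Krt80, which fill the cornifying cell, all had fitted values above 0 (median 0.22, from 0.03 to 1.38), and none passed the test. Sprr2a3, a small proline-rich gene with near-identical copies, measured 29.7, 8.48 and 11.0 CPM in WT and 0.66, 1.39 and 2.10 CPM in MUT, without overlap (-3.56, SE 1.27). Abca12, the lipid transporter of lamellar granules, measured 1.78, 2.92 and 1.50 CPM in WT and 2.55, 27.7 and 30.2 CPM in MUT (3.28, SE 1.23).

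Pnpla1, an enzyme of skin ceramides, owed its -3.73 (SE 1.28) to WT library 1, at 181 CPM against at most 6.18 CPM elsewhere, and was at -0.11 without it. The third gene lower at that threshold, named after its value was seen, was Scel, which encodes sciellin, an envelope precursor (-2.54, SE 1.14, all MUT below WT).

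Of 21 regulators of epidermal differentiation, 20 were tested, 0 passed at either threshold and the median was -0.23. At the unadjusted threshold, 1.85% of all genes tested were lower in MUT and 1.62% higher. Those with the smallest p were Ovol1 (1.36, SE 0.74, but 0.32 without MUT library 2), Grhl2 (-1.19, SE 0.72, but -0.19 without WT library 1) and Notch3 (-1.87, SE 1.18, but 0.79 without WT library 1). Of 6 further desmosome-associated genes, 5 were tested and 0 passed at either threshold. Perp, a membrane protein needed for desmosome assembly, was the 1 without overlap, where 3.96% of all genes tested had all MUT libraries below WT. Its values were 490, 380 and 493 CPM in WT and 176, 360 and 297 CPM in MUT (-0.71, SE 0.34). Pkp4 had a log2 fold change of -0.66 (SE 0.52), but -0.38 without WT library 2 and -0.41 without MUT library 2, and Dsg1b one of -0.53 (SE 0.68), but 0.58 without WT library 1.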

How the data were processed

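The authors deposited unnormalized whole-number counts for each Ensembl gene in each of the 6 libraries. The submitters' processing notes list STAR 2.4.2a, DESeq2 1.26.0 and GRCm38 without saying what each was used for. What counted the reads, on which annotation and with or without strand, is not given in the sources used here. Per the labels' protocols, cDNA was made with the Nugen Ovation method and libraries with Nextera XT. No molecular identifiers are described, so counts are not independent molecules.

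Symbols, positions and exon lengths came from GENCODE M21 (42548 of 43432 gene IDs matched). Group and replicate number came from the titles. Counts of any 2 libraries differed beyond sampling noise (chi-square over degrees of freedom at least 91.4). The test was edgeR 4.0.16 (R 4.3.3): filterByExpr, TMM, robust quasi-likelihood, genotype as the only term, Benjamini-Hochberg over 17172 genes. The fit was tested on simulated data, drawn from the means and sizes of these libraries with known changes put into randomly drawn genes; no value from it is used here. All 39 members could be named. From each of the 3 further lists, the 3 genes with the smallest p were named. Members and lists were chosen with earlier results of these data known. Alternatives were the replicate block, DESeq2 size factors, DESeq2 1.42.0, limma-voom (limma 3.58.1), no filter, a stricter filter (1 CPM in 3 libraries), an adjusted p of 0.1 and leaving out each library. Scaling by Epcam was chosen after seeing the data. The symbol Ccl21a stood on more than 1 row and was left out.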

Additional observations from a re-analysis of the deposited data

How the results depend on the processing

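The count of 0 members past an adjusted p of 0.05 held in edgeR with the replicate block, with DESeq2 size factors, without a filter on low counts, with the stricter filter, at an adjusted p of 0.1, with limma-voom and with any 1 library left out (0 to 0), and became 1 with DESeq2 (Ly6d, adjusted p 0.0233). Over all genes the count of 0 became 1 with the block, 116 with DESeq2 and 73 without the filter, and stayed at 0 with any 1 library left out; the cause was not tested. With 1 library left out, so that fewer were compared, 3 to 9 members had all MUT libraries below WT and 0 to 2 all above. Of all genes tested, 6.55% to 9.48% lay all below and 9.08% to 12.6% all above in those fits. Relative to Epcam, 1 member (Ly6d) lay below and 2 (Dsc2 and Dsg3) above, where 1.31% and 12.0% of all genes did. The median log2 fold change of the members ran from -0.34 to -0.17 with 1 library left out and was -0.16 with the block and -0.15 with limma-voom, where the median of all genes was 0.06 and 0.07. Without the filter and with DESeq2 the median of all genes moved from -0.01 to 0.16 and 0.15, while that of the members was -0.31 and -0.30. The MUT to WT ratio of the summed level, 0.85, ran from 0.78 to 0.91.

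WT and MUT libraries with the same number have source names that end alike, and the labels do not say what the ending means; a shared day or litter cannot be told from them, and the numbers were not taken as pairs. Deviations from the genotype means correlated at 0.10, 0.059 and 0.127 between libraries of the same number, and 6 of 6 libraries correlated best with their own number. With the replicate block the sign turned for Evpl (0.18), Sbsn (0.01), Calm4 (0.51), Aloxe3 (0.71), Asprv1 (0.15) and Cdsn (0.72), and with limma-voom for Evpl (0.08), Calm4 (1.10), Aloxe3 (1.28), Asprv1 (0.11) and Cdsn (1.04); the block changed no other sign and no call of a member. Of 38 members, 17 kept their sign in all 12 alternatives. With 1 library left out the log2 fold change ranged across 0 for Ivl (-0.47 to 0.21), Lor (-0.85 to 0.85), Sprr1a (-0.05 to 0.47), Cnfn (-0.70 to 0.61), Evpl (-1.01 to 0.83), Ppl (-0.01 to 0.62), Sbsn (-0.42 to 0.11), Dmkn (-0.25 to 0.02), Calm4 (-1.37 to 0.17), Calml3 (-0.56 to 1.00), Alox12b (-1.29 to 0.33), Aloxe3 (-1.16 to 0.85), Asprv1 (-0.59 to 0.44), Casp14 (-0.57 to 0.60), Grhl3 (-0.71 to 0.51), Cdsn (-0.86 to 0.45), Pkp1 (-0.06 to 0.62), Pkp2 (-1.64 to 0.34), Pkp3 (-0.41 to 0.12), Dsg1a (-0.82 to 0.01) and Dsg2 (-0.38 to 0.08). Some members rest on few counts: Lor had 33 to 222 counts a library, a 5.52-fold range in CPM, and Flg 0 in 5 libraries.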
